A study of Mus musculus with 9 samples.

Results

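The 9 genes described here belong to late maturation of the neutrophil. Ltf, Ngp, Lcn2, Cd177 and Itgb2l are genes of the secondary granule stage, Mmp8 was placed with the tertiary granule genes, S100a8 and S100a9 encode both subunits of calprotectin, and Cxcr2 encodes a chemokine receptor of the mature cell. They were picked by name, with earlier results in view, among the genes that the authors' tables list as differing between groups, so the values below chose them and describe them. The limma calls given for them describe tables of already selected genes and are not evidence of a difference. The 9 genes are 9 of the 2810 genes that at least 1 of the 3 tables lists, and all 9 have a value in every library. The libraries are RNA from bone marrow cells of 8-week-old C57BL/6 J mice, depleted of lineage-positive cells, selected with magnetic beads for Sca-1 and then for CD31, and expanded in endothelial growth medium without estrogen, which the study calls endothelial progenitor cells (EPCs). M-EPCs came from male mice, F-EPCs from female mice with their ovaries, and OVX-EPCs from female mice ovariectomized at about 35 days of age, with 3 libraries per group. Setting M-EPCs against F-EPCs asks about sex, and both comparisons with OVX-EPCs ask whether ovarian hormones account for it. The study's methods speak of biological replicates in general terms, but the labels do not say which libraries of a group came from separate mice or cultures, so p-values and spreads measure only the differences between these libraries, which may be technical in part, and how many mice were pooled is not given in the sources used here. The labels also call the cells freshly isolated, while the growth protocol gives a culture.

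Neutrophils fill their granules in sequence as they mature in the marrow. Primary granule proteins such as myeloperoxidase and the serine proteases are made at the promyelocyte stage, secondary granule proteins such as lactoferrin at the myelocyte and metamyelocyte stages, and tertiary granule proteins and surface receptors for exit from the marrow later still. Transcription factors of the C/EBP family and PU.1 act on many of these genes. Lineage depletion is meant to remove mature granulocytes, so their transcripts are not defining genes of the sorted cells. In bulk RNA, fewer cells of a type and less RNA per cell cannot be told apart.

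All 9 genes had their highest mean in F-EPCs. In M-EPCs 7 of them stood between 2.98% and 24.0% of the F-EPC mean, and Itgb2l and Cxcr2 had no reads. In OVX-EPCs 6 of them stood between 2.77% and 14.6% of the F-EPC mean, and Ngp, Mmp8 and Cxcr2 between 47.7% and 64.5%.

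Of the genes that define the sort, Ly6a, which encodes Sca-1, averaged 258.9 ± 48.6 normalized counts over M-EPC libraries (SD, n = 3), 575.5 ± 27.3 over F-EPC libraries and 232.0 ± 27.5 over OVX-EPC libraries. Pecam1, which encodes CD31, had 487.2 ± 3.64, 157.4 ± 7.56 and 364.3 ± 8.32 in the same order. Both were read in every library. Normalized counts are reads scaled by a factor for each library, and whole reads came back for 100% of the values. Size factors lay between 0.836 and 1.11 in the table of M-EPC and F-EPC libraries, and reads on the listed genes between 454298 and 2070442 per library over the 3 tables. Values of all 9 libraries below stand on the scale of the table of M-EPC and F-EPC libraries, to which OVX-EPC libraries were linked through the F-EPC libraries, and this scale is used for description only because the tables were normalized separately. The floor of 3 reads is worth between 2.69 and 3.59 normalized counts there and covers counting error only.

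The promoters of 4 of the 9 genes are shown because their OVX-EPC means lie far apart, at 4.76% and 10.1% of the F-EPC mean for Ltf and S100a9 and 64.5% and 47.7% for Mmp8 and Cxcr2. Each sequence is from RefSeq on GRCm38.p6, 5′ to 3′ in the direction of the gene, and ends at the base before the first annotated transcript start. Capitals mark matches on either strand to TTNNGNAA (C/EBP), GAGGAA (PU.1), TATAAA (the box of the core promoter), TGANTCA (AP-1) and AGGTCA (1 arm of an estrogen response element), none of which overlap each other in these windows. The Ltf window is chr9:111019042-111019270 on the plus strand, the S100a9 window chr3:90695722-90695971 on the minus strand, the Mmp8 window chr9:7558179-7558428 on the plus strand and the Cxcr2 window chr1:74153744-74153988 on the plus strand.
Ltf: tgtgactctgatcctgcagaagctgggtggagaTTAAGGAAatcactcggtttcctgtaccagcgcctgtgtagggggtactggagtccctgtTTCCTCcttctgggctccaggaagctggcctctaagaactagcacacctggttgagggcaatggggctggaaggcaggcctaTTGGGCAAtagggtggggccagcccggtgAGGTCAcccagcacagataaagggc
S100a9: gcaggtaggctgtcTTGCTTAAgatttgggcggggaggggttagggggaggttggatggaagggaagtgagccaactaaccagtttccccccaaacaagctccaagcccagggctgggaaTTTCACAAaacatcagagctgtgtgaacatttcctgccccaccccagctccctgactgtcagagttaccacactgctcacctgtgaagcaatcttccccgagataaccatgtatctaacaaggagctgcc
Mmp8: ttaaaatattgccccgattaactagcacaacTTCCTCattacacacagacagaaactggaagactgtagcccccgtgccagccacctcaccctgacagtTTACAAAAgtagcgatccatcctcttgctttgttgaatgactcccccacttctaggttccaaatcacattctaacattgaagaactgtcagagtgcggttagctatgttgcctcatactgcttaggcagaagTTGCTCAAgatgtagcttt
Cxcr2: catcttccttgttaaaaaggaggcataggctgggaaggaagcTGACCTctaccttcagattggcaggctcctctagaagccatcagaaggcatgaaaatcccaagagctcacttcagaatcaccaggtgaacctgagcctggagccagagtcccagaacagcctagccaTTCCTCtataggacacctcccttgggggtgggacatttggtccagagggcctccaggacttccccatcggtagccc

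Over the 250 bases before the RefSeq start, TTNNGNAA occurred in 8 of the 9 genes, against 36.8% of 32851 promoters of the same length, and Cxcr2 was the gene without it. GAGGAA occurred in 7 of 9, against 23.3% of promoters, and was not found for Ngp and S100a9. AGGTCA occurred in 3 of 9 (Ltf, Itgb2l and Cxcr2), against 14.0%, and TATAAA in 2 of 9 (Cd177 and S100a8), against 12.4%. The full estrogen response element AGGTCANNNTGACC was found in 0 of 9 windows, against 17 of all promoters, and TGANTCA in 0 of 9, against 6.75%. Matches are letters only.

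Ltf encodes lactoferrin, the iron-binding protein of secondary granules. The gene spans positions 111019271 to 111042767 of chromosome 9 (GRCm38). Ltf had 115.1, 78.4 and 123.2 normalized counts in F-EPC libraries 1 to 3. In OVX-EPC libraries it had 7.56, 2.77 and 4.73, and in M-EPC libraries 15.2, 15.3 and 1.20. F-EPC libraries were all far above the others, and M-EPC and OVX-EPC libraries overlapped. In their own tables the log2 difference was -3.65 (standard error 0.85) for M-EPCs minus F-EPCs and 4.21 (standard error 0.35) for F-EPCs minus OVX-EPCs, on log2 of the normalized count plus 1. The M-EPC value rests in part on replicate 3 with its 1 read, without which it was -2.69, and it was -4.13 without M-EPC replicate 1 or 2. The OVX-EPC mean was 4.76% of the F-EPC mean.

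Lcn2, which encodes lipocalin 2, a protein that binds bacterial siderophores, lies on chromosome 2 from 32384633 to 32388252. F-EPC libraries had 107.04, 61.0 and 102.4 normalized counts of Lcn2, OVX-EPC libraries 15.1, 8.30 and 5.68, and M-EPC libraries 2.86, 1.80 and 32.3. The M-EPC library with 27 Lcn2 reads, replicate 3, is the one with 1 Ltf read, and the M-EPC libraries with 3 and 2 Lcn2 reads had 16 and 17 Ltf reads. The log2 difference was -3.64 (standard error 0.996) for M-EPCs minus F-EPCs, -4.75 without M-EPC replicate 3 and -2.97 without M-EPC replicate 2, and it was 3.15 (standard error 0.40) for F-EPCs minus OVX-EPCs. Between M-EPCs and OVX-EPCs the libraries overlapped, and neither Ltf nor Lcn2 is listed in that table.

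Ngp, which encodes neutrophilic granule protein, a cathelicidin relative, lies on chromosome 9 from 110419747 to 110423012. Its normalized counts were 136.3, 136.5 and 160.2 in F-EPC libraries, 62.4, 64.6 and 82.4 in OVX-EPC libraries and 19.99, 45.8 and 38.3 in M-EPC libraries. The 3 groups formed 3 separate levels, with F-EPCs highest and M-EPCs lowest. The log2 difference was -2.10 (standard error 0.32) for M-EPCs minus F-EPCs, -1.05 (standard error 0.33) for M-EPCs minus OVX-EPCs and 1.05 (standard error 0.16) for F-EPCs minus OVX-EPCs. Ngp is the gene closest to the 2-fold limit of the authors' screen, with 2.01-fold more in OVX-EPCs than in M-EPCs and 2.07-fold more in F-EPCs than in OVX-EPCs. Size factors recomputed on the listed genes brought the log2 difference of Ngp between M-EPCs and OVX-EPCs to -0.81 with TMM and -0.37 with DESeq2, both short of the threshold of 1, and without M-EPC replicate 1 it was -0.71. Between F-EPCs and OVX-EPCs the call of Ngp was lost without F-EPC replicate 3 (0.97), OVX-EPC replicate 1 (0.97) or OVX-EPC replicate 2 (0.995). Ltf lies 596.3 kb from Ngp on the same chromosome, and the OVX-EPC mean was 48.4% of the F-EPC mean for Ngp.

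Cd177 and Itgb2l were rarely read outside F-EPCs. Cd177, a surface and granule protein that associates with integrins, lies on chromosome 7 from 24743983 to 24760311 and had 27, 31 and 5 reads in F-EPC libraries, 0, 1 and 8 in OVX-EPC libraries and 1, 1 and 0 in M-EPC libraries. As normalized counts the F-EPC libraries had 27.3, 30.0 and 4.74, and OVX-EPC replicate 3, at 7.58, was above F-EPC replicate 3, so these groups overlapped. F-EPCs held 30.7 times the level of M-EPCs over the pooled reads, with a 95% counting interval from 8.16 to 259.1 that leaves out the spread between libraries. The log2 difference of M-EPCs minus F-EPCs was -3.47 (standard error 0.74), -4.26 without F-EPC replicate 3 and -3.04 without F-EPC replicate 2. The log2 difference between F-EPCs and OVX-EPCs was 2.78 (standard error 1.04), and it was 3.66 without OVX-EPC replicate 3 and 2.09 without OVX-EPC replicate 1, where it lost its call. Of the 50-base stretches of Cd177 transcripts, 5.51% are shared with BC049730 or Gm4763 transcripts, and how the authors counted reads that map to several genes is not given in the sources used here.

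Itgb2l encodes an integrin beta chain related to that of the leukocyte integrins and lies on chromosome 16 from 96422288 to 96443619, where it overlaps Igsf5 on the opposite strand. It had 14, 13 and 7 reads in F-EPC libraries, 0, 1 and 0 in OVX-EPC libraries and 0 in each M-EPC library. F-EPC libraries stood at 14.1, 12.6 and 6.63 normalized counts, above every other library. Against the floor of 3 reads per library Itgb2l was at least 3.65-fold lower in M-EPCs, and the ratio of F-EPCs to OVX-EPCs was 35.3 with a 95% counting interval from 5.92 to 1436. The library kit keeps strand, but whether the authors' counting used it is not given, so Itgb2l and Igsf5 reads cannot be told apart with certainty.

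Mmp8, which encodes neutrophil collagenase, lies on chromosome 9 from 7558456 to 7568485 and had the most reads of the 9 genes in every library. Its normalized counts were 457.4, 500.6 and 492.9 in F-EPC libraries, 293.1, 354.3 and 287.9 in OVX-EPC libraries and 93.3, 129.3 and 88.5 in M-EPC libraries. The groups did not overlap, and F-EPC libraries lay close together, with a coefficient of variation of 4.76% against 4.49% from read counting alone. The log2 difference was -2.23 (standard error 0.17) for M-EPCs minus F-EPCs and -1.59 (standard error 0.20) for M-EPCs minus OVX-EPCs. With size factors of DESeq2 the latter was -0.95, short of the threshold of 1. At 64.5% of the F-EPC mean in OVX-EPCs, Mmp8 is not listed between F-EPCs and OVX-EPCs.

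S100a8 and S100a9 lie 22.6 kb apart on chromosome 3, S100a8 from 90668978 to 90670035 and S100a9 from 90692632 to 90695721, on opposite strands. Their products pair to form calprotectin, the most abundant protein of neutrophil cytosol. S100a8 had 186.8, 203.4 and 163.03 normalized counts in F-EPC libraries, 34.98, 20.3 and 25.6 in OVX-EPC libraries and 31.4, 36.8 and 41.8 in M-EPC libraries. S100a9 had 159.5, 126.9 and 114.7 in F-EPC libraries, 17.96, 10.2 and 12.3 in OVX-EPC libraries and 9.52, 1.80 and 3.59 in M-EPC libraries. Both genes were highest in F-EPCs. M-EPC and OVX-EPC libraries overlapped for S100a8, and OVX-EPC libraries were all above M-EPC libraries for S100a9. For M-EPCs minus F-EPCs the log2 difference was -2.30 (standard error 0.15) for S100a8 and -4.70 (standard error 0.50) for S100a9. For F-EPCs minus OVX-EPCs it was 2.76 (standard error 0.23) for S100a8 and 3.24 (standard error 0.25) for S100a9.

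The calprotectin subunits were not read in 1 fixed ratio. S100a8 reads per S100a9 read, not corrected for length, were 1.17, 1.60 and 1.42 in F-EPC libraries and 1.95, 2 and 2.08 in OVX-EPC libraries. In M-EPC libraries they were 3.30, 20.5 and 11.7, on 10, 2 and 3 S100a9 reads. The 3 groups did not overlap in this ratio, but the counting intervals of OVX-EPC libraries, which reach from 0.930 to 4.57, cover the F-EPC values. The M-EPC libraries have intervals from 1.59 to 175.0. The ratio was looked at after the values had been seen and was not tested.

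Cxcr2 encodes the receptor for CXC chemokines that draws neutrophils out of the marrow, on chromosome 1 from 74153989 to 74161246. It had 0 reads in each M-EPC library. F-EPC libraries had 31.3, 36.8 and 19.0 normalized counts and OVX-EPC libraries 12.3, 4.61 and 24.6, so that these groups overlapped, with OVX-EPC replicate 3 above F-EPC replicate 3. Against the floor, Cxcr2 was at least 9.53-fold lower in M-EPCs when set against F-EPCs and at least 4.53-fold lower against OVX-EPCs, a bound that falls to 2.77 without OVX-EPC replicate 3. Cxcr2 is not listed between F-EPCs and OVX-EPCs, where the OVX-EPC mean was 47.7% of the F-EPC mean, or 29.1% without OVX-EPC replicate 3. Stretches of 50 bases shared with transcripts of 220 other genes make up 6.68% of Cxcr2.

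**Figure D1:**
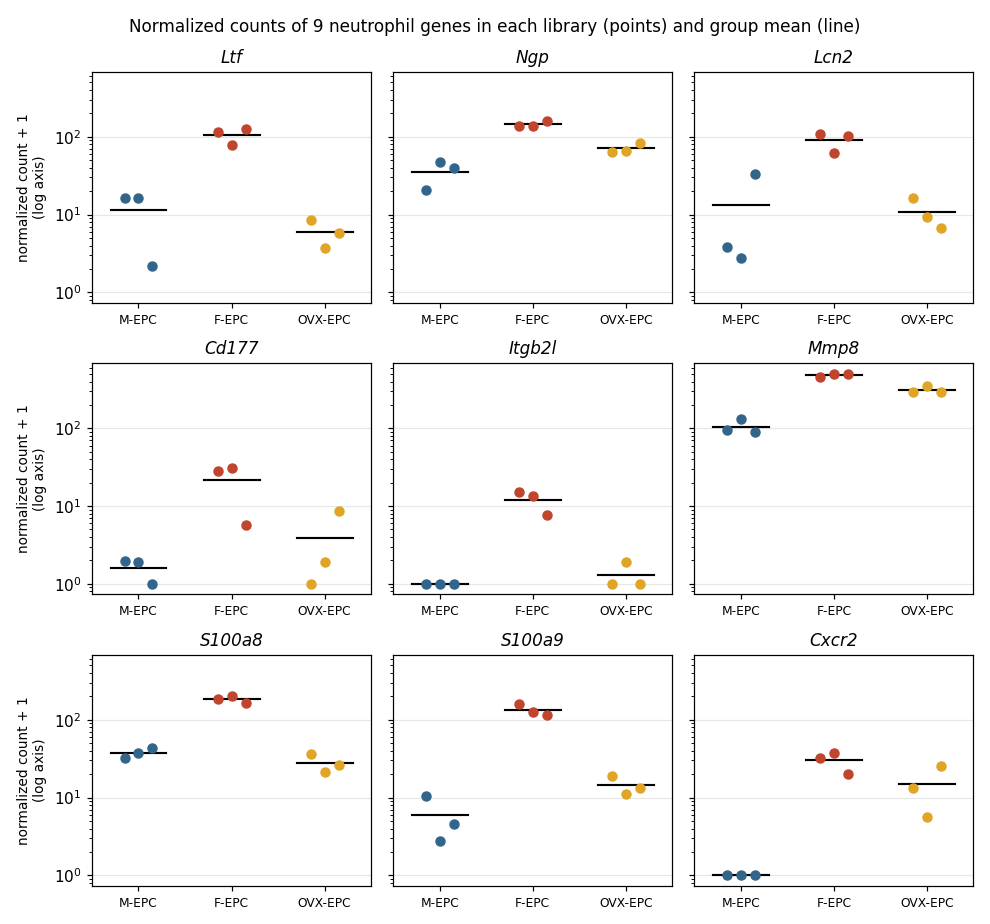
Normalized count plus 1 on a log axis for each of the 9 neutrophil genes, with a point for each library and a line at the mean of the 3 libraries of a group, on the scale of the table of M-EPC and F-EPC libraries. F-EPCs had the highest mean for all 9 genes, and Cd177 and Cxcr2 are the genes where an OVX-EPC library reached into the F-EPC range.

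Together the 9 genes summed to 1203 ± 28.01 normalized counts per F-EPC library (SD, n = 3), 453.7 ± 12.0 per OVX-EPC library and 203.5 ± 29.3 per M-EPC library. They fell into 2 sets by their OVX-EPC level, which are also the sets that the tables list apart. Ltf, Lcn2, Cd177, Itgb2l, S100a8 and S100a9 had OVX-EPC means under 20% of the F-EPC mean (Cd177 at 13.7%, or 2.23% without OVX-EPC replicate 3 and 20.6% without OVX-EPC replicate 1) and are not listed between M-EPCs and OVX-EPCs. Ngp, Mmp8 and Cxcr2 had larger shares and are listed there. Summed over the first 6 genes, F-EPC libraries had 609.9, 512.3 and 514.7 normalized counts, OVX-EPC libraries 75.6, 43.4 and 55.9, and M-EPC libraries 60.0, 56.6 and 78.9. The 6 genes are those that the table of M-EPCs and OVX-EPCs does not list, so that the closeness of these groups in the sum follows from the choice.

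The table of M-EPCs and F-EPCs lists all 9 genes, and limma called all 9 lower in M-EPCs, where it called 49.3% of the 2093 listed genes lower and 97.6% in either direction. The table of M-EPCs and OVX-EPCs lists 3 of them, and all 3 were called lower in M-EPCs, against 58.0% of the 1317 listed genes called lower and 98.8% called in either direction. The table of F-EPCs and OVX-EPCs lists 7, and all 7 were called higher in F-EPCs, against 30.8% of the 811 listed genes called higher and 98.2% called in either direction. Cd177 lost its call there with a pseudocount of 0.1, with a replicate block and in 4 of the 6 fits that leave out a library, and Ngp in 3 of these 6. Libraries of the groups did not overlap for 9 of 9, 3 of 3 and 6 of 7 genes in the same order, against 98.3%, 99.2% and 98.9% of the listed genes. Every listed gene had passed the authors' screen on these libraries, which is also how the 9 genes came to be picked, so nothing is read from these counts. The median log2 difference of the 9 genes was -3.54 for M-EPCs minus F-EPCs, or -3.25 with Itgb2l and Cxcr2 at their bounds, against -0.99 over all listed genes. For M-EPCs minus OVX-EPCs it was -1.59 over 3 genes, against -1.26. For F-EPCs minus OVX-EPCs it was 3.15 over 7 genes, against -1.31. These medians of all listed genes mix genes past the 2-fold limit in both directions. Without regard to sign, the median log2 difference of all listed genes was 1.62, 1.80 and 1.66 in the same order. With size factors recomputed by DESeq2 the share of calls that are higher in the first group moved from 31.4% to 67.1% for F-EPCs against OVX-EPCs, from 41.3% to 52.6% for M-EPCs against OVX-EPCs and from 49.5% to 37.2% for M-EPCs against F-EPCs. The comparisons share libraries, so their values are not independent of each other.

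**Figure D2:**
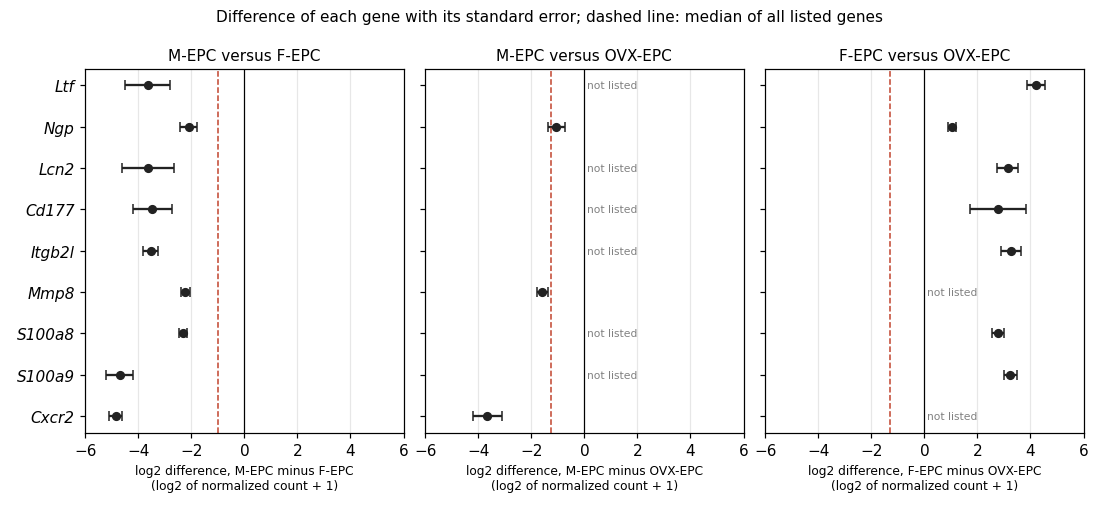
Log2 difference of each of the 9 genes in the 3 comparisons, with its standard error from limma, on log2 of the normalized count plus 1, and a dashed line at the median of all listed genes. Points lie below 0 in both comparisons that start with M-EPCs and above 0 for F-EPCs minus OVX-EPCs, where the median of all listed genes is -1.31.

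Levels of the 9 genes can be set beside each other per kilobase of exon. In F-EPCs S100a8 led with 265.7 ± 29.2 normalized counts per kilobase (SD, n = 3), followed by S100a9 with 256.1 ± 44.4, Mmp8 with 199.4 ± 9.50 and Ngp with 118.1 ± 11.2. S100a8 and S100a9 differed by less than their spread. Lcn2 with 34.4 ± 9.66 and Ltf with 30.6 ± 6.92 came next and also differed by less than their spread, ahead of Cxcr2, Cd177 and Itgb2l with 9.52, 7.28 and 2.57. In OVX-EPCs Mmp8 led with 128.6 ± 15.2, Ngp was second with 57.1 ± 8.97 and S100a8 came after them with 38.8 ± 10.7. In M-EPCs S100a8 led with 52.9 ± 7.52, next to Mmp8 with 42.8 ± 9.21 per kilobase.

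On the authors' scaling the genes of the earlier, primary granules had another order of groups. The list of primary granule genes holds 7, and the tables list Mpo, Elane, Prtn3, Ctsg and Ms4a3 of them. Mpo encodes myeloperoxidase, Elane, Prtn3 and Ctsg encode serine proteases, and Ms4a3 marks granulocyte progenitors. Summed over these 5 genes, OVX-EPC libraries had 216.5, 177.2 and 227.3 normalized counts, F-EPC libraries 118.1, 126.9 and 125.1, and M-EPC libraries 4.76, 8.98 and 0. In this sum OVX-EPC libraries were all above F-EPC libraries, but gene by gene the groups overlapped for Mpo, Ctsg, Prtn3 and Ms4a3 and were apart for Elane alone. The log2 ratio of F-EPCs to OVX-EPCs was -0.75 for the sum of the primary granule genes. It became 0.39 when moved by the 1.14 that TMM on the listed genes adds to the median of all of them. TMM assumes that most genes are unchanged, but every listed gene had passed the authors' screen, and 546 of 796 calls were lower in F-EPCs. The shift therefore cannot decide the order of the groups. For the sum of the 9 late genes, which were picked from these values, the ratio was 1.41 on the authors' scaling and 2.54 with that shift.

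Mpo had 145.6, 72.0 and 120.3 normalized counts in OVX-EPC libraries, 62.6, 60.04 and 81.5 in F-EPC libraries and 1.90, 6.29 and 0 in M-EPC libraries, and F-EPC and OVX-EPC libraries overlapped. Elane had 11.3, 38.8 and 32.2 in OVX-EPC libraries and 10.1, 9.68 and 0 in F-EPC libraries, a log2 difference of -2.39 (standard error 1.09) for F-EPCs minus OVX-EPCs, which limma did not call. It is the only primary granule gene listed between these groups. In M-EPCs minus F-EPCs the log2 difference was -4.63 for Mpo, -3.76 for Ctsg and -3.69 for Prtn3. These values rest on few M-EPC reads, with 2, 7 and 0 for Mpo, 1, 1 and 0 for Ctsg and 1, 2 and 0 for Prtn3. In M-EPCs minus OVX-EPCs all 5 were lower, with -5.31 for Mpo and -4.36 for Elane. These genes are in tables of selected genes too, and the values are a description.

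**Figure D3:**
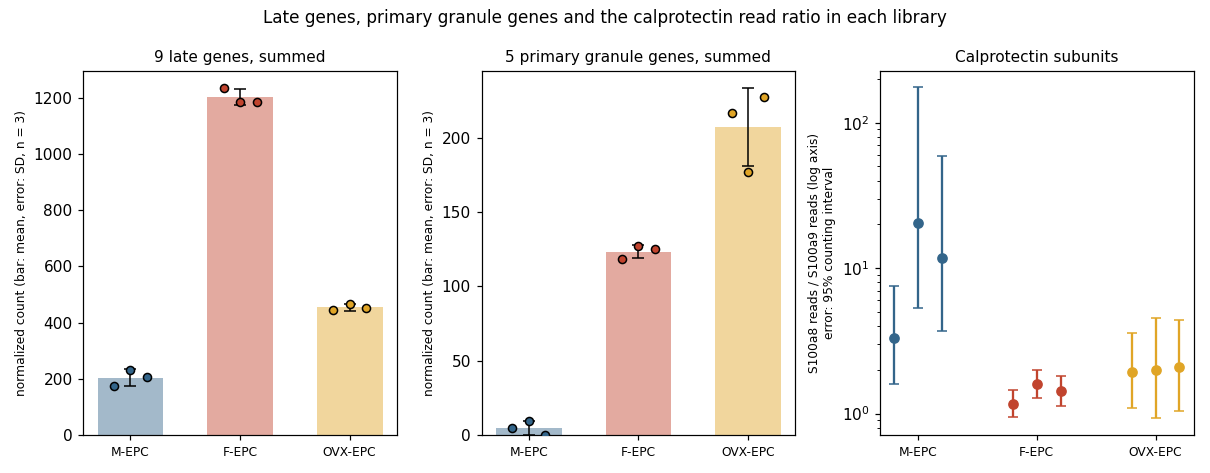
Summed normalized counts of the 9 late genes and of 5 primary granule genes, as bars at the mean with SD (n = 3) and points for libraries, and S100a8 reads per S100a9 read on a log axis with 95% counting intervals. On the authors' scaling the 9 late genes, picked from these values, average 1203 in F-EPCs and 453.7 in OVX-EPCs. The primary granule genes average 123.4 and 207.0. This second order turns with the shift of TMM, which was fitted to genes that had all passed the screen and cannot decide the order.

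The lists written with earlier results known hold 62 neutrophil genes besides the 9, and 17 genes of ligands, receptors, partners and inhibitors that other cells express too. Of the 62, the table of M-EPC and F-EPC libraries lists 14, with 12 lower and 2 higher in M-EPCs. The table with OVX-EPC in place of F-EPC libraries also lists 14, with 10 lower and 4 higher in M-EPCs. The table of F-EPC and OVX-EPC libraries lists 5, with Chil3, Fpr1 and Ifitm6 higher and Elane, which limma did not call, and Cxcr1 lower in F-EPCs. Of the 17, these tables list 6, 6 and 2, with 3 lower and 3 higher in M-EPCs, then 5 lower and 1 higher in M-EPCs, and then Pecam1 and Timp1 lower in F-EPCs. Genes that often mark neutrophils, among them Camp, Ly6g, Csf3r, Retnlg, Mmp9 and Cebpe, are not listed in any table and were not analysed here.

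Among secondary granule genes the list of 18 has 8 listed between M-EPCs and F-EPCs, all lower in M-EPCs. Besides the 9 genes these are Chil3, Olfm4 and Mcemp1. Chil3, a chitinase-like protein, had 140.4, 138.5 and 152.6 normalized counts in F-EPC libraries, 13.2, 27.7 and 17.0 in OVX-EPC libraries and 48.5, 42.2 and 75.3 in M-EPC libraries. It was highest in F-EPCs like the 9 genes, but every M-EPC library was above every OVX-EPC library, with a log2 difference of 1.49 (standard error 0.34). Olfm4, which encodes olfactomedin 4, had 0 reads in M-EPC libraries and was at least 2.87-fold lower there than in F-EPCs. Mcemp1 had a log2 difference of -2.16 (standard error 0.51) in M-EPCs minus F-EPCs.

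Cxcr1, 30.5 kb from Cxcr2 and encoding a related receptor, had the reverse order of F-EPCs and OVX-EPCs. It had 7.56, 19.4 and 15.2 normalized counts in OVX-EPC libraries, 5.05, 0 and 1.90 in F-EPC libraries and 0 in each M-EPC library. OVX-EPC libraries were all above F-EPC libraries, with a log2 difference of -2.47 (standard error 0.73) for F-EPCs minus OVX-EPCs. The CXCR2 ligand genes Ppbp and Cxcl5 were lower in M-EPCs than in both other groups, by a log2 difference of -5.35 and -3.75 against F-EPCs, and neither is listed between F-EPCs and OVX-EPCs. Cxcl5 had 0, 8 and 0 reads in M-EPC libraries, so its value rests on few reads. Ppbp is also a platelet gene.

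Other genes of mature neutrophils did not share 1 order of groups. Fcgr4, which encodes an Fc receptor also found on macrophages, averaged 12430 ± 140.8 normalized counts per M-EPC library (SD, n = 3) and 3320 ± 228.2 per F-EPC library, with a log2 difference of 1.91. The formyl peptide receptor genes Fpr1 and Fpr2 were highest in M-EPCs, with log2 differences of 1.96 and 2.13 for M-EPCs minus OVX-EPCs. Padi4, whose product citrullinates histones, was lower in M-EPCs than in both other groups, with a log2 difference of -1.79 against F-EPCs and -1.67 against OVX-EPCs. Of 9 granulocyte transcription factor genes the tables list Gfi1 alone, with a log2 difference of -2.58 (standard error 0.48) for M-EPCs minus OVX-EPCs. Timp1, which encodes an inhibitor of collagenases such as Mmp8, was lowest in F-EPCs at 36.4 ± 15.9 normalized counts, against 120.9 ± 13.2 for M-EPCs and 253.5 ± 17.2 for OVX-EPCs. Timp3, which encodes a related inhibitor, was lowest in M-EPCs at 165.01 ± 12.6, against 486.4 ± 31.2 for F-EPCs and 928.5 ± 60.5 for OVX-EPCs.

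**Figure D4:**
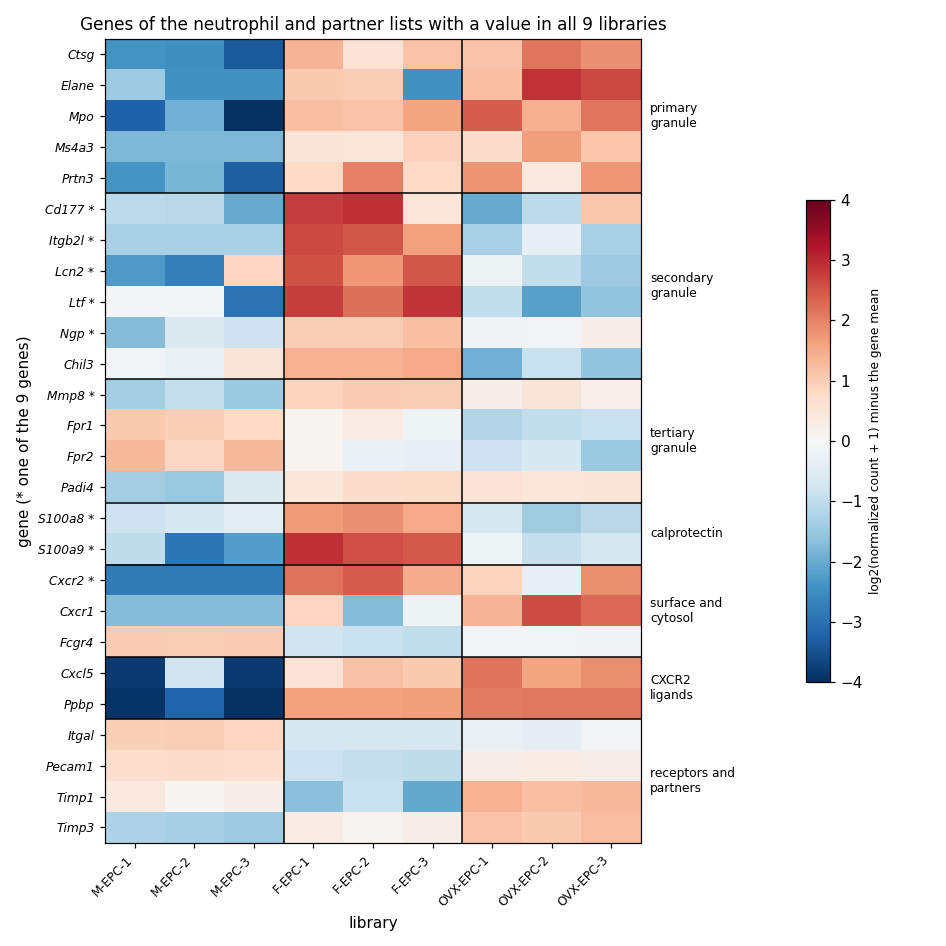
Log2 of the normalized count plus 1 minus the mean of the gene over the 9 libraries, for 26 genes of these lists with values in every library, in rows by role, with the 9 genes starred and colours limited at 4 in either direction. Starred rows are red in F-EPC columns, primary granule rows are red in F-EPC and OVX-EPC columns apart from Elane in F-EPC replicate 3, and Fpr1, Fpr2 and Fcgr4 are red in M-EPC columns.

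Markers of other cell types moved as well. Of 94 marker genes of cell types that the sort or culture could hold, the table of M-EPC and F-EPC libraries lists 44, with 39 lower in M-EPCs, and the table of M-EPC and OVX-EPC libraries lists 51, with 50 lower in M-EPCs. All 7 basophil and mast cell genes were lower in M-EPCs in both tables, with summed normalized counts between 2.39 and 30.5 per M-EPC library, between 524.9 and 540.2 per F-EPC library and, in the other table, between 756.2 and 888.6 per OVX-EPC library, and Mcpt8 had 0 reads in M-EPCs. Eosinophil genes (3 of 6 listed) summed to at most 8.37 per M-EPC library and at least 96.8 per F-EPC library, with Epx and Ear6 at 0 in M-EPCs. Of 10 megakaryocyte and platelet genes, 9 were lower in M-EPCs in both tables, with sums between 1151 and 1225 per M-EPC library and between 8597 and 8816 per F-EPC library. S100a8 and S100a9 are also monocyte genes, and of 14 monocyte and macrophage genes Ly6c2, Ccr2, Cx3cr1 and F13a1 were lower and C1qa higher in M-EPCs when set against F-EPCs, while between F-EPCs and OVX-EPCs F13a1 alone is listed and was lower in F-EPCs. All listed B lymphocyte (5 of 8), dendritic cell (3 of 8) and T and NK lymphocyte genes (2 of 9) were lower in M-EPCs than in F-EPCs, as were 4 of 5 listed endothelial genes. Between F-EPCs and OVX-EPCs, where 7 of the 9 neutrophil genes are higher in F-EPCs, 16 of the 94 are listed, and 14 of them are lower in F-EPCs. With the shift of TMM, which was fitted to already screened genes, 10 were lower. The 2 that are higher in F-EPCs are Ly6a and Procr. The 14 include all 4 listed of 8 stromal genes (Col1a1, Col1a2, Pdgfra and Des), which summed to between 114.1 and 157.1 normalized counts per F-EPC library and between 622.02 and 799.1 per OVX-EPC library, and Col1a2 and Pdgfra were also lower in F-EPCs than in M-EPCs. The part of other cell types in the differences of the 9 genes was not tested.

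By the root mean square difference of centred log2 values over the 6 libraries of a table, G0s2 was the listed gene most like the median profile of the 9 genes between M-EPCs and F-EPCs, with a difference of 0.20 on the log2 scale, and means of 10.1 ± 2.53 normalized counts (SD, n = 3) over M-EPC and 100.7 ± 14.0 over F-EPC libraries. The next were Gm8565, Gramd2, F730016J06Rik and Adgrg1, up to 0.27. Between F-EPCs and OVX-EPCs the closest to the 7 listed genes were Ly6a2, Chac1, Ccl7, Oprd1 and Usp18, between 0.27 and 0.39. Between M-EPCs and OVX-EPCs they were BC021767, Clec2i, Fstl1, Mmp27 and Hspa1a for the 3 listed genes, between 0.14 and 0.18. The 9 genes themselves differed from their median profile by between 0.31 and 1.30 in the table of M-EPCs and F-EPCs.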

How the data were processed

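RNA sequencing libraries of the 3 groups, 3 per group, were analysed, with groups and replicate numbers taken from the sample titles. Reads were mapped with HISAT2, quantified with Cuffquant and Cuffnorm and compared with DEseq, per the paper, and mm10 is the build in the submitters' processing notes. The authors deposited a table per comparison, holding only genes that passed their limits of 2 on fold change and 0.05 on FDR. The deposited signal is a normalized count, reads divided by a size factor set by the authors in each table. Each deposited table also has the log2 fold change and p-value of the authors' own fit, which were not used.

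Whole reads were recovered within a tolerance of 0.001 reads for 100% of the values, and did not differ between tables in the 807, 435 and 292 genes held by 2 of them. Depth is known only on listed genes. All 9 libraries were placed on the scale of the table of M-EPC and F-EPC libraries, with a link that differed by between 0.0120% and 0.358% from one through the M-EPC libraries. Limma 3.58.1 in R 4.3.3 was fitted to log2(normalized count + 1) of the 6 libraries of a table, keeping genes whose mean reached 1 in a group, and a gene was called where its Benjamini-Hochberg adjusted p-value was under 0.05 and its log2 difference at least 1 in size. It was tested on simulated data and recovered 200 of 200 genes changed 4-fold in each comparison, with 4, 1 and 2 false calls. There the changed genes were well read, the spread was small and most genes were unchanged, unlike in the deposited tables. The simulation checks that the fit runs as meant, not its power or false calls for the 9 genes. Counting intervals are exact at 95% and cover counting error only. Gene positions are from GENCODE M21 and promoters from RefSeq GRCm38.p6. Xist reads numbered at most 6 per M-EPC library and at least 40935 per other library, and no pair of libraries agreed within sampling noise.

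The 9 genes, the gene lists and the tests were chosen with earlier results of these data known. Genes of the lists are named where a table lists them, apart from 1 that is not reported here, and for each table the 5 genes most like the median profile of the 9 are named. The order of groups in the calprotectin ratio, and the split of the 9 genes by their OVX-EPC level, were described after their values had been seen. Alternatives were a pseudocount of 0.1, no filter or a filter on a mean of 10, edgeR 4.0.16 with the authors' size factors or with TMM, DESeq2 1.42.0 with its own size factors, a replicate block, and leaving out each library in turn. Python 3.11.15 and matplotlib 3.10.9 were used for the rest.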

Additional observations from a re-analysis of the deposited data

How the results depend on the processing

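All 9 genes kept their direction in every comparison that lists them under every alternative run. They are listed because they passed the authors' screen on these same libraries, so a kept direction adds no evidence. Size factors recomputed on the listed genes changed the calls between F-EPCs and OVX-EPCs. There they raised the median log2 difference of all listed genes by 1.14 with TMM and 1.13 with DESeq2, called 404 and 380 genes in place of 796, and moved the share of calls that are higher in F-EPCs from 31.4% to 63.1% and 67.1%. All 7 listed genes stayed called there, with medians of 4.33 and 4.34 in place of 3.15, about as much higher as the shift of all genes. Between M-EPCs and OVX-EPCs DESeq2 raised the median by 0.63 and the share higher in M-EPCs from 41.3% to 52.6%, and called 1 of the 3 genes lower (Cxcr2), with log2 differences of -0.37 for Ngp and -0.95 for Mmp8. TMM raised that median by 0.20 and called 2, with -0.81 for Ngp. Between M-EPCs and F-EPCs DESeq2 lowered the median by 0.37 and the share higher in M-EPCs from 49.5% to 37.2%, and all 9 stayed called. A filter on a mean of 10 moved that median from -0.99 to 0.99. All listed genes had passed a 2-fold limit, and 1042 of 2093 lay at -1 or below. The median therefore sits beside a range that holds few genes, and losing some genes can turn its sign. TMM and DESeq2 were fitted to screened genes only, so their shifts do not measure how good the authors' scaling is. What else lies behind these changes was not tested.

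Values of genes with no or few reads in a group depend on the pseudocount. With 0.1, Cxcr2 moved from -4.86 to -8.13, Itgb2l from -3.54 to -6.74 and Cd177 from -3.47 to -5.07 in M-EPCs minus F-EPCs. With the same pseudocount Cd177 lost its call between F-EPCs and OVX-EPCs. Replicate numbers did not pair the libraries, with correlations of deviations between -0.019 and 0.032 for libraries of the same number. The replicate block called 2003, 1288 and 781 genes in place of 2043, 1301 and 796, and 9, 3 and 6 of the 9, 3 and 7 listed genes, with Cd177 lost between F-EPCs and OVX-EPCs. Leaving out each library in turn called between 1864 and 1913, between 1208 and 1235, and between 724 and 755 genes. It called all 9 genes between M-EPCs and F-EPCs, 2 or 3 of 3 between M-EPCs and OVX-EPCs, where Ngp was lost without M-EPC replicate 1, OVX-EPC replicate 2 or OVX-EPC replicate 3, and between 5 and 7 of 7 between F-EPCs and OVX-EPCs. There Cd177 was lost without F-EPC replicate 1 or 2 or OVX-EPC replicate 1 or 2, and Ngp without F-EPC replicate 3 or OVX-EPC replicate 1 or 2. In F-EPCs, where reads were most, counting error was largest for Itgb2l, Cd177 and Cxcr2, at 29.7%, 21.8% and 18.4% of the mean. In OVX-EPCs it was 173.2% for Itgb2l, 57.7% for Cd177, 43.3% for Ltf and 31.1% for Lcn2, and in M-EPCs 122.5% for Cd177 and 44.7% for S100a9.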
